A study of Mus musculus with 10 samples.

Results

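Sox1, Sox3, Sox21, Pax6, Hes5, Fabp7, Nes and Six3 are 8 genes that mark or regulate neural progenitors, and they are described here by the symbol given in the deposited tables, 8 of 22878 genes. Their RNA was measured by RNA-Seq in R1 mouse embryonic stem (ES) cells and in the embryoid bodies (EBs) formed from them. All cells carried a short hairpin RNA (shRNA) that was delivered by a pGreenPuro lentivirus and kept by puromycin selection. In shLuc, the control, the shRNA was directed against luciferase, and in shSmyd5 against Smyd5, which encodes a histone methyltransferase. ES cells were taken off feeder cells by passages on gelatin with LIF and the GSK3 inhibitor CHIR9901, and EBs were grown in low attachment dishes without LIF and collected at 24 h and at days 6, 10 and 14. The series has 1 library for each line and stage, 10 in all, so no difference at a single stage has a replicate check, and the labels do not say which hairpin against Smyd5 was used.

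Neural progenitors arise when epiblast cells take on a neural fate, and the genes described here encode parts of that step. The SoxB1 factors Sox1 and Sox3 bind DNA through an HMG domain and hold cells in the progenitor state, and Sox21, of the SoxB2 group, works against them. Pax6 and Six3 are homeobox factors of the forebrain and eye, Hes5 is a repressor switched on by Notch signalling through RBPJ, Fabp7 is the fatty acid binding protein of radial glia, and Nes encodes nestin, the intermediate filament of neural progenitors.

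In EBs of day 10 all 8 genes were at least 4-fold lower in shSmyd5 than in shLuc, with RPKM values of 6.78 to 18.6 in shLuc and 0.101 to 1.97 in shSmyd5. Of the 4105 genes with a shLuc RPKM in the same range, 1.41% were at least 4-fold lower. RPKM gives the reads of a transcript relative to its length in kilobases and to the size of the library. Genes are called expressed at a stage where their RPKM was 3 or more in either line, which the 8 genes reached at day 10 through shLuc alone. The summed RPKM of the 8 genes in shLuc was 11.7 in ES cells, 8.90 at 24 h, 34.1 at day 6, 88.8 at day 10 and 92.5 by day 14. In shSmyd5 the same sum was 4.47 in ES cells, 8.21 at 24 h, 11.7 at day 6, 6.99 at day 10 and 6.94 by day 14. From day 10 to day 14 Fabp7 alone rose in shLuc, from 9.05 to 65.5, and each of the other genes fell. In EBs, which hold many cell types, fewer cells of a type and less RNA per cell cannot be told apart.

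**Figure D1:**
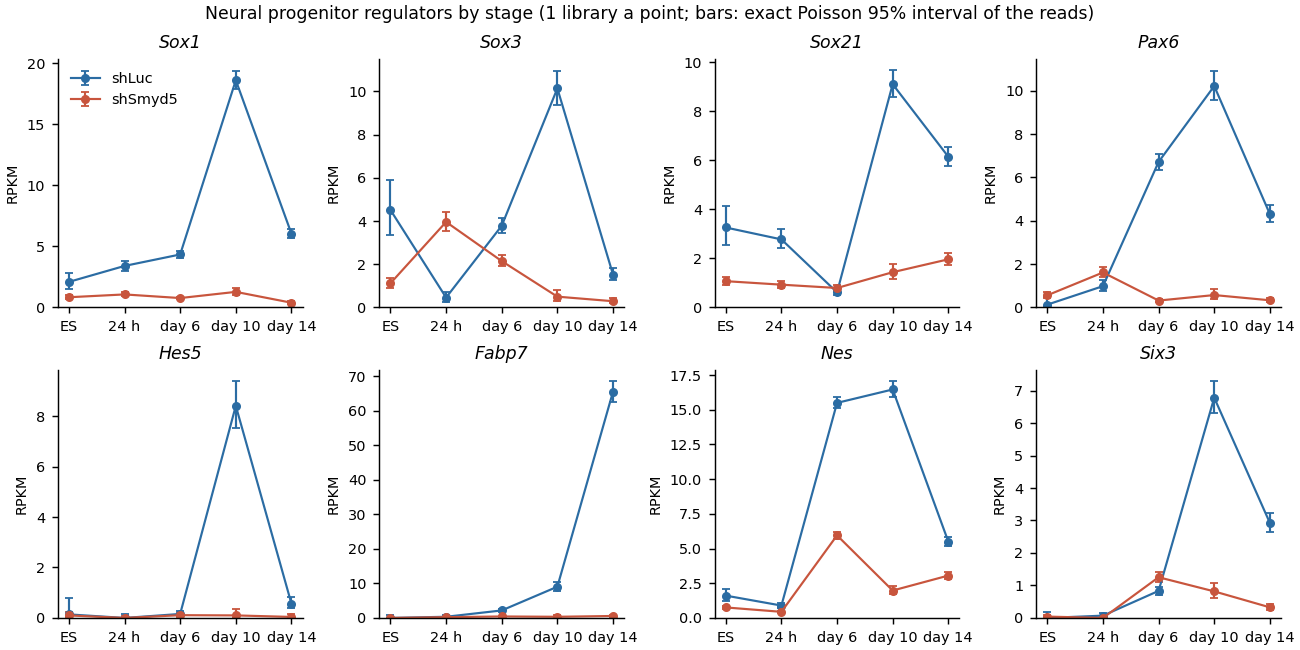
RPKM of each gene (y axis, linear, a scale of its own in each panel) in ES cells and in EBs of 24 h, day 6, day 10 and day 14 (x axis) for shLuc (blue) and shSmyd5 (red), with 1 library a point and bars that give the exact Poisson 95% interval of its reads. At day 10 the shLuc points lie between 6.78 and 18.6 and the shSmyd5 points between 0.101 and 1.97, and Fabp7 reaches 65.5 in shLuc at day 14.

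The stretch around the start site of Hes5 is shown because the gene stayed at or under an RPKM of 0.158 before day 10 and then had a narrow peak in shLuc, and because it holds 5 copies of the short motifs that were searched for. Those motifs are TGGGAA, the core bound by RBPJ (25.6% of 32851 mouse promoters of the same 300 bases hold it on either strand), ACAATG (12.6%) and ACAAAG (18.7%), both bound by Sox factors, and the octamer ATGCAAAT (1.74%), bound by POU factors such as OCT4. Sox1 and Fabp7 are shown because they are the other genes of the 8 with the RBPJ core. Sequences are from RefSeq (GRCm38.p6), with an entry for 7 of the 8 genes, and each of those printed was found once, without a difference, in mm9, which all coordinates follow. They run 5′ to 3′ on the strand of the gene from 250 bases before the start site to 50 bases after it, and capitals mark the motifs, which do not overlap.
Hes5 (chr4:154334782-154335081, plus strand): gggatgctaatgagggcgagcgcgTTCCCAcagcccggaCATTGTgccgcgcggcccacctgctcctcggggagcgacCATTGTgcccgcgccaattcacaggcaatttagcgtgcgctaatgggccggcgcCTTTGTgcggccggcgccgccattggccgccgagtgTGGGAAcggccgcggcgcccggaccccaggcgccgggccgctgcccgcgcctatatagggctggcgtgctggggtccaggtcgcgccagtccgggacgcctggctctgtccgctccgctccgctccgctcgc
Sox1 (chr8:12395269-12395568, plus strand): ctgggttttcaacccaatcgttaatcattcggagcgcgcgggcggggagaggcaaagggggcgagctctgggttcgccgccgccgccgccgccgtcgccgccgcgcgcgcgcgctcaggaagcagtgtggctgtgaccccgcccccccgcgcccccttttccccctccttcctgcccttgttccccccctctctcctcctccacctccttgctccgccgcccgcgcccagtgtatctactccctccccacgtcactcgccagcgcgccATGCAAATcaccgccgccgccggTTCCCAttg
Fabp7 (chr10:57504479-57504778, plus strand): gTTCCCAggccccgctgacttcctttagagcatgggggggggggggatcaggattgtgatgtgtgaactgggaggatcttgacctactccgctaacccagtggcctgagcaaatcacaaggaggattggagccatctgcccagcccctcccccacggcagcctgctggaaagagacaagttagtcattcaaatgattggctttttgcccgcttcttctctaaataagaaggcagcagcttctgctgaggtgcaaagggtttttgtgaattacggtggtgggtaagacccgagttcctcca

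Hes5 held the RBPJ core at -82 on its own strand and at -226 on the other strand, relative to the start site. Between them lay ACAATG on the other strand at -211 and -172 and ACAAAG at -118. In Sox1 the octamer stood at 18 and the RBPJ core at 41, both after the start site, and Fabp7 held the RBPJ core at -249, the outer edge of the window. Pax6 held ACAAAG in 1 of its 2 start regions, at -154. Nes, Sox21 and Six3 held no copy of these letters in this window, and Sox3 had no entry. A match is a run of letters, and no binding was measured here.

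Reads in genes ranged from 3895537 in shLuc ES cells to 43377815 in shLuc EBs of day 6. RPKM values of Smyd5, the target of the shRNA, were 29.7 (shLuc) and 4.51 (shSmyd5) in ES cells, 10.7 and 0.891 at 24 h, 15.4 and 0.492 at day 6, 25.0 and 9.14 at day 10, then 13.1 and 6.88 at day 14. It was thus lower in shSmyd5 at every stage, and by less than 2-fold at day 14. Folds are given as log2 of RPKM plus 0.1 in shSmyd5 less log2 of RPKM plus 0.1 in shLuc, which understates the change of low genes. The 95% interval beside a fold is the exact binomial interval of the reads of the pair. It covers counting error only and compares those libraries, not the conditions.

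Sox1 (chromosome 8, start site 12395519) is among the first genes to mark neural ectoderm. In shLuc its RPKM was 2.09 in ES cells (47 reads), 3.39 at 24 h, 4.33 at day 6, 18.6 at day 10 (2287 reads) and 6.04 by day 14. In shSmyd5 it was 0.828, 1.06, 0.762, 1.27 (80 reads) and 0.380 at the same stages. All 5 shLuc libraries lay above all 5 shSmyd5 libraries, a separation that Sox1 alone of the 8 showed and that 12 of 12277 genes showed (0.0977%). The log2 fold went from -1.24 (-1.70 to -0.76) in ES cells and -1.59 (-1.85 to -1.33) at 24 h to -2.36 (-2.56 to -2.16) at day 6, -3.77 (-4.09 to -3.47) at day 10, and at day 14 it was -3.68 (-3.99 to -3.37).

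Sox3 (chromosome X from 58144545 to 58146605, minus strand) is active in the epiblast as well as in neural progenitors. In shLuc it had an RPKM of 4.51 in ES cells (52 reads), 0.454 at 24 h (18 reads), 3.78 at day 6, 10.1 at day 10 and 1.52 by day 14. In shSmyd5 it had 1.12, 3.96 (342 reads), 2.14, 0.496 (16 reads) and 0.285. The lines thus crossed at 24 h, where shLuc had its lowest and shSmyd5 its highest level of Sox3. The log2 fold was -1.92 (-2.41 to -1.42) in ES cells, 2.87 (2.29 to 3.48) at 24 h, -0.79 (-0.997 to -0.59) at day 6, -4.10 (-4.75 to -3.49) at day 10, then -2.08 (-2.59 to -1.55) at day 14. After a trend of the folds on GC content and transcript length over all genes was taken out, the values were -0.63 in ES cells, 1.96 at 24 h and -3.19 at day 10, so that the fold of 2 in ES cells was lost. For Sox1, whose GC content was not known, this could not be done.

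Sox21 (chromosome 14 from 118632454 to 118636252, minus strand) had in shLuc an RPKM of 3.26 in ES cells, 2.77 at 24 h, 0.612 at day 6, 9.10 at day 10 and 6.14 by day 14. In shSmyd5 the values were 1.07, 0.925, 0.789, 1.43 and 1.96. Day 6 was the lowest point of both lines (in shSmyd5 not beyond counting error from 24 h) and the stage at which they lay closest, with a log2 fold of 0.32 (0.05 to 0.60). At the other stages shSmyd5 was lower, with -1.52 (-1.92 to -1.11) in ES cells, -1.49 (-1.78 to -1.19) at 24 h, -2.58 (-2.90 to -2.28) at day 10 and -1.60 (-1.79 to -1.42) at day 14. The ES cell value was -0.70 once the GC and length trend was taken out. The reads carry no strand, and 713 bases of the exons of Sox21 overlap those of Gm4675 on the opposite strand, so the reads of these genes cannot be told apart there.

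Pax6 (chromosome 2 from 105509053 to 105543317, plus strand) is the homeobox factor of cortical and eye progenitors. Its RPKM in shLuc was 0.127 in ES cells (2 reads), 0.980 at 24 h, 6.72 at day 6 (1222 reads), 10.2 at day 10 and 4.31 by day 14. The shSmyd5 values were 0.558 in ES cells (62 reads), 1.61 at 24 h, 0.314 at day 6 (57 reads), 0.568 at day 10 and 0.327 by day 14. Up to 24 h the shSmyd5 libraries held more Pax6 RNA, and from day 6 on they held far less. The log2 fold was 1.53 (0.18 to 2.54) in ES cells and 0.66 (0.25 to 1.09) at 24 h, both below the level of an expressed gene. It was -4.04 (-4.34 to -3.74) at day 6, -3.95 (-4.47 to -3.45) at day 10 and -3.37 (-3.77 to -2.97) at day 14. The 5 listed transcripts of Pax6 gave RPKM values of 8.85 to 10.7 in shLuc and 0.486 to 0.599 in shSmyd5 at day 10. Elp4, on the opposite strand, overlaps 5542 bases of the exons of Pax6 and had 6.43 RPKM in shLuc and 5.07 in shSmyd5 at day 10, and of 6.54 and 2.46 at day 6.

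Six3 (chromosome 17 from 86012948 to 86031153, plus strand) is the homeobox factor of the anterior forebrain and the eye field. In shLuc its RPKM was 0 in ES cells, 0.0707 at 24 h (5 reads), 0.833 at day 6, 6.78 at day 10 and 2.93 by day 14. In shSmyd5 it was 0.0413 in ES cells (6 reads), 0 at 24 h, 1.25 at day 6, 0.817 at day 10 and 0.326 by day 14. No fold is given for ES cells and 24 h, where 1 library of each pair had 0 reads. Six3 was thus a little higher in shSmyd5 at day 6, with a log2 fold of 0.54 (0.30 to 0.78), and lower at day 10, with -2.91 (-3.31 to -2.52), and at day 14, with -2.83 (-3.18 to -2.47). Its antisense neighbour Six3os1, which overlaps 106 bases of its exons, had 5.51 and 0.335 at day 10. At day 6 Six3os1 was at 0.182 in shLuc and at 0 in shSmyd5, the opposite order to Six3.

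Hes5 (chromosome 4 from 154335032 to 154336480, plus strand) had in shLuc an RPKM of 0.141 in ES cells (1 read), 0 at 24 h, 0.158 at day 6 (13 reads), 8.41 at day 10 (326 reads) and 0.567 by day 14 (28 reads). In shSmyd5 it had 0.0995 (5 reads), 0, 0.110 (9 reads), 0.101 (2 reads) and 0.0401 (2 reads). The day 10 library of shLuc stood alone, and the shSmyd5 line had no such peak at the stages sampled. At day 10 the ratio of RPKM plus 0.1 was 42.4-fold, a log2 fold of -5.41 (-6.25 to -4.19), and at day 14 it was 4.76-fold, a log2 fold of -2.25 (-2.74 to -1.30). In ES cells and at day 6 the interval of the fold included 0. Since its value in shSmyd5 is close to the 0.1 that was added, the day 10 log2 fold ranged from -6.25 with 0.01 added to -3.10 with 1 added. Reads from RP24-89N4.5, whose exons overlap 433 bases of Hes5 on the opposite strand, cannot be told apart from those of Hes5 there.

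Fabp7 (chromosome 10 from 57504687 to 57508256, plus strand), the radial glia gene, had 0 reads in the ES cells of both lines. The upper end of the exact Poisson 95% interval then allowed an RPKM of up to 0.867 in the shallow shLuc library and of up to 0.123 in shSmyd5. In shLuc EBs it had an RPKM of 0.342 at 24 h (5 reads), 2.17 at day 6, 9.05 at day 10 and 65.5 by day 14 (1938 reads). It was the one gene of the 8 that was still going up between day 10 and day 14 in shLuc. In shSmyd5 EBs it had 0.219 (7 reads), 0.428 (21 reads), 0.336 (4 reads) and 0.570 (17 reads). In the order of level of all 10 libraries, none of these differed beyond counting error from the library next below it. Libraries further apart in that order were not compared. The log2 fold was -2.11 (-2.70 to -1.52) at day 6, -4.39 (-5.59 to -3.23) at day 10 and -6.61 (-7.25 to -6.01) at day 14. The day 14 value was the lowest among the 10476 genes expressed at that stage.

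Nes (chromosome 3 from 87775000 to 87784373, plus strand) was the gene of the 8 with the highest level in shSmyd5. Its RPKM in shLuc was 1.61 in ES cells, 0.893 at 24 h, 15.5 at day 6 (6131 reads), 16.5 at day 10 and 5.50 by day 14. In shSmyd5 it was 0.757, 0.441, 5.95 (2348 reads), 1.97 and 3.05. Nes thus went up from 24 h to day 6 in both lines, and stayed below shLuc in shSmyd5 at all 5 stages. The log2 fold was -0.995 (-1.41 to -0.57) in ES cells, -0.88 (-1.21 to -0.53) at 24 h, -1.37 (-1.43 to -1.30) at day 6, -2.997 (-3.21 to -2.79) at day 10, then -0.83 (-0.96 to -0.70) at day 14.

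**Figure D2:**
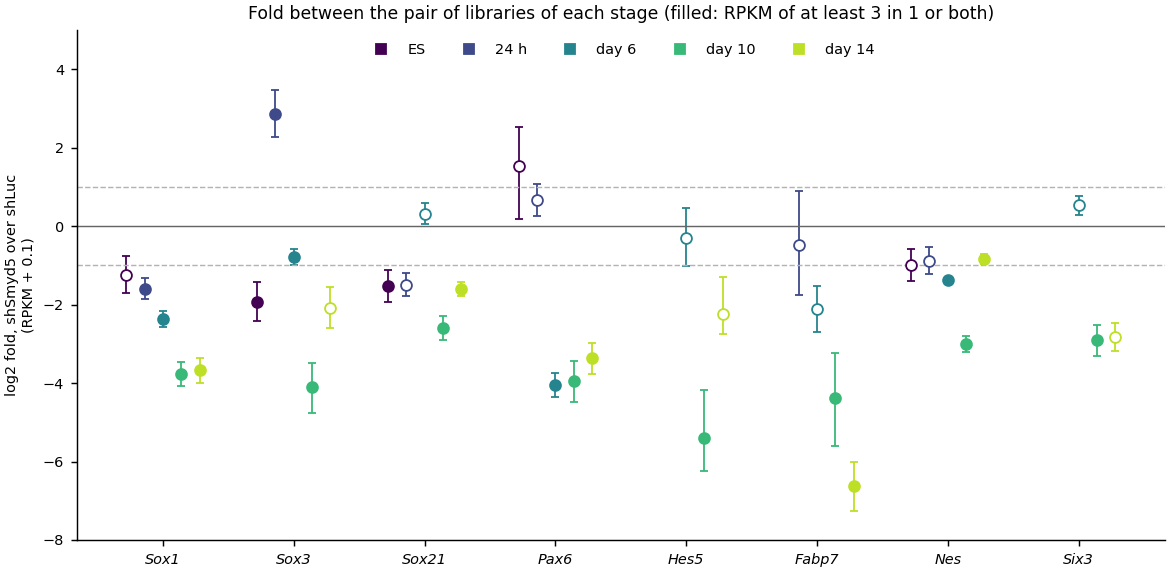
log2 fold of shSmyd5 over shLuc on RPKM plus 0.1 (y axis) for each gene (x axis) at the 5 stages (colours), with the exact binomial 95% interval of the reads; filled points are expressed genes (RPKM of 3 or more in either line), dashed lines mark a fold of 2, and 5 of 40 pairs with at most 6 reads in each library are left out. All 8 day 10 points are filled and lie between -5.41 (Hes5) and -2.58 (Sox21), and the 24 h point of Sox3 at 2.87 is the one filled point above the upper line.

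Counts at a single stage use a fold of 2 among expressed genes. In ES cells 2 of the 8 genes reached that level and both were lower, Sox3 and Sox21, against 11.3% lower and 4.52% higher of all 9329 genes. Both passed through shLuc alone, and among genes that passed in shLuc 11.8% were lower. At 24 h Sox1 was lower and Sox3 higher, the 2 genes that reached the level, where 4.26% of 8354 genes were lower and 13% higher. Sox1 passed through shLuc alone, where 4.75% of the genes that passed were lower, and Sox3 through shSmyd5 alone, where 13.8% were higher. At day 6, 4 genes reached it and 3 were lower (Sox1, Pax6 and Nes), where 19.4% of 9461 genes were lower and 8.18% higher. The median log2 fold over those 9461 genes was -0.35, so that a lower value was common at that stage. All 4 passed through shLuc, and among genes that passed in shLuc 20.3% were lower.

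At day 10 all 8 genes reached the level, each through shLuc alone, since the highest of their shSmyd5 values was 1.97, and all 8 were lower. Of 10576 genes 6.51% were lower and 3.15% higher, and 6.72% were lower among those expressed in shLuc. Genes whose shLuc RPKM lay within the range of the 8 (6.78 to 18.6) numbered 4105, and 6.41% of them were at least 2-fold and 1.41% at least 4-fold lower. The median log2 fold of the 8 was -3.86 against -0.05 over the 10576 expressed genes. Between 0.0756% (Hes5) and 0.6997% (Sox21) of the 10576 genes had a lower log2 fold than each of the 8. With the GC and length trend taken out, the 7 genes whose GC content was known had log2 folds from -4.89 (Hes5) to -2.18 (Sox21), and with 1 in place of 0.1 added all 8 lay between -3.11 (Sox1) and -2.05 (Sox21).

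At day 14, 5 genes reached the level, all through shLuc. Sox1, Sox21, Pax6 and Fabp7 were lower and Nes was within 2-fold, where 4.07% of 10476 genes were lower, 3.17% higher, and 4.24% lower among those that passed in shLuc. Sox3, Hes5 and Six3 were under an RPKM of 3 in both libraries, with values of 0.567 to 2.93 in shLuc and 0.0401 to 0.326 in shSmyd5. The median log2 fold was -3.37 for the 5 expressed genes and -2.54 for all 8, against 0.01 over the 10476 expressed genes. Smyd5 itself differed less between the lines at day 10 (log2 fold -1.44) and day 14 (-0.92) than at day 6 (-4.71), and the part of this in the values above was not tested.

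**Figure D3:**
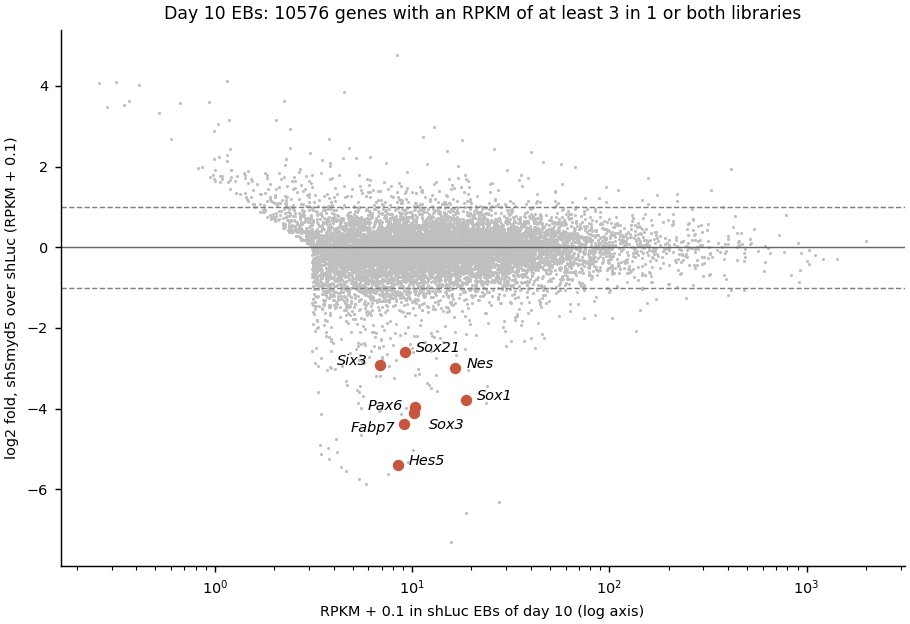
log2 fold of shSmyd5 over shLuc (y axis) against RPKM plus 0.1 in shLuc (x axis, log scale) in EBs of day 10, for 10576 expressed genes, with an RPKM of 3 or more in either line (grey, 1 point a gene) and the 8 genes described here (red, named); dashed lines mark a fold of 2. The 8 red points lie from -5.41 to -2.58, below the bulk of the genes of the same level in shLuc.

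Whether the lines differed over the stages was tested with edgeR's quasi-likelihood test on the reads, blocked by stage, with the spread of the differences over the 5 stages as the error. In this and the next test the stages stand in for replicates, and they are not replicates of the knockdown. A p-value thus describes how steady the difference between the lines was over stages. An effect of Smyd5 and another difference between the lines cannot be told apart. The shared test covered the 12277 genes whose RPKM averaged 1 or more over the libraries, which left out Hes5. After Benjamini-Hochberg adjustment no gene was called at 0.05 (0% of those tested). At an unadjusted p under 0.05, edgeR found 697 genes higher and 728 lower (5.93%), and DESeq2 called 177 higher and 159 lower of 12038 genes after adjustment. All 7 genes tested had a log2 difference below 0, where the median over all genes tested was -0.007, and 5 of them had an unadjusted p under 0.05. The RPKM filter averages both lines, so a gene can pass through shLuc alone, as did Fabp7 (at most 0.570 in shSmyd5). For such genes the filter favours a lower value in shSmyd5. Sox1 was the nearest to a call, at -2.61 (SE 0.437) with an adjusted p = 0.0805 by edgeR, lower in shSmyd5 at 5 of 5 stages as were 6.19% of the genes tested. Nes was also lower at 5 of 5 stages, at -1.40 (SE 0.317) with an adjusted p = 0.166 by edgeR. For Fabp7 the edgeR estimate was -3.64 (SE 0.983, adjusted p = 0.221) and for Sox21 -1.41 (SE 0.442, adjusted p = 0.272). Pax6 (-2.29), Six3 (-1.86) and Sox3 (-1.40) had edgeR adjusted p-values of 0.408 to 0.560. DESeq2 called Sox1 (adjusted p = 2.21e-07), Fabp7 (adjusted p = 0.000681), Nes (adjusted p = 0.00164), Sox21 (adjusted p = 0.0333) and Pax6 (adjusted p = 0.0391). With no filter on RPKM edgeR called Sox1, Fabp7 and Nes, where 112 of 19819 genes were called higher and 51 lower.

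Whether the difference between the lines was itself larger at days 10 and 14 than at the 3 other stages was tested as an interaction in edgeR, with the split into late and other stages made in the knowledge of earlier results. No gene was called after adjustment (0% of 12277), edgeR found 119 genes higher and 303 lower (2.47%) at an unadjusted p under 0.05, and DESeq2 called 5 higher and 18 lower, none of them among the genes described here. All 7 tested had an estimate below 0, from -4.46 (SE 1.11) for Fabp7 to -0.84 (SE 0.626) for Nes, and the edgeR adjusted p was 1 for each. The median estimate over all genes tested was 0.006. A gene with its highest levels in shLuc at days 10 and 14, as Six3 (6.78 and 2.93), passes the RPKM filter through them. This favours an estimate below 0. The estimate for Nes turned to 0.23 when day 10 was left out, and over the alternatives it went down to -1.88. The unadjusted edgeR p was 0.00283 for Sox1, 0.00380 for Fabp7 and 0.0393 for Sox3. A difference in the size of the knockdown effect between stages was therefore not shown for any of the 7 genes tested with these libraries.

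The change over differentiation averaged over both lines, days 10 and 14 less ES cells and 24 h, was tested in the same way, and it does not show that each line changed. Six3, Nes and Fabp7 rose in this average. Fabp7 rose by 6.27 on the log2 scale (SE 1.42, edgeR adjusted p = 0.00405), Six3 by 5.25 (SE 0.989, edgeR adjusted p = 0.00113) and Nes by 2.27 (SE 0.356, edgeR adjusted p = 0.000363), where 30% of 12277 genes were called higher. Sox21 (0.72), Sox1 (0.47), Pax6 (0.45) and Sox3 (-1.13) did not pass, with edgeR adjusted p-values of 0.204 to 0.730. Over all genes edgeR called 3684 higher and 3192 lower, with a median log2 change of 0.05, and limma on log2 of RPKM plus 0.1 called 4935 higher and 2058 lower, with a median of 0.44. The calls for Six3, Nes and Fabp7 were the same with limma. Fabp7 lost its call when the ES cell libraries were left out, where its estimate was 3.32 (edgeR adjusted p = 0.0617), and it stayed at or under an RPKM of 0.570 in all shSmyd5 libraries.

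Among themselves the 8 genes had log2 RPKM plus 0.1 profiles over the 10 libraries that were all positively correlated, with Pearson r from 0.19 to 0.86 and a median of 0.61 over 28 pairs. These are descriptions over libraries that share lines and stages. The gene most like each of the 8, among 12088 genes expressed at 1 or more stages, was Igfbpl1 for Sox1 (r = 0.90), Trp53i11 for Sox3 (r = 0.91), 2700081O15Rik for Sox21 (r = 0.95), Ppp1r9a for Pax6 (r = 0.96), Cntnap2 for Hes5 (r = 0.96), Zfp827 for Fabp7 (r = 0.96), Ntrk2 for Nes (r = 0.94) and Dach1 for Six3 (r = 0.97). Next came Arnt2 and Tagln3 for Sox1 (r = 0.89 and 0.87), Dclk2 and Npcd for Sox3 (r = 0.91 and 0.89), Nsg2 and Peg12 for Sox21 (r = 0.89 and 0.87), and Trib2 and Zik1 for Pax6 (r = 0.96 and 0.92). Fam181a and Fezf2 followed for Hes5 (r = 0.95 and 0.92), Stmn4 and Pdp1 for Fabp7 (r = 0.95 for both), Spred3 and Slc35f1 for Nes (r = 0.93 for both), and Rspo3 and Fgfbp3 for Six3 (r = 0.97 for both). The levels of these genes at day 10 show what the likeness means. Fezf2, a zinc finger gene of the forebrain, had 9.48 in shLuc and 0.139 in shSmyd5, Dach1 had 7.51 and 0.894, and Cntnap2, a neurexin family gene of neurons, had 13.1 and 1.38. Zfp827 differed less, with 3.97 and 1.34.

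Other genes of neural progenitors and neural patterning, a list of 35, included many that were lower in shSmyd5 at day 10. There 23 were expressed, 19 of them at least 2-fold lower and 0 higher, with a median log2 fold of -1.41. For this list and those below, the shares of all expressed genes lower and higher were 11.3% and 4.52% in ES cells. They were 4.26% and 13% at 24 h, 19.4% and 8.18% at day 6, 6.51% and 3.15% at day 10, and 4.07% and 3.17% at day 14. The difference between this list and the 8 was not tested. The summed RPKM of the list was 867 in shLuc and 365 in shSmyd5. Sox2, the SoxB1 factor shared by pluripotent and neural cells, had an RPKM of 62.8 and 23.5 at day 10, and Otx2, a homeobox factor of the forebrain and midbrain, had 44.5 and 16.6. Vim, the intermediate filament gene also used by mesenchyme, had 481 and 232. Of the 23 expressed genes 6 had a log2 fold below that of Sox21 (-2.58), picked here for their values: the POU factor gene Pou3f3 (5.41 and 0.251), the homeobox genes Lhx5 (9.18 and 0.491), Otx1 (12.1 and 1.04), Emx2 (8.01 and 0.764) and Lhx2 (10.3 and 1.06), and the paired box gene Pax3 (4.52 and 0.364). Their folds lay among those of the 8, so values as low were not limited to the 8 genes. At day 6, 8 of 13 were lower and 1 higher, and at day 14 12 of 18 were lower and 0 higher. In ES cells and at 24 h most lay within 2-fold, with 2 of 12 and 1 of 11 lower and 0 and 4 higher. Gbx2, the fourth gene of the list by level, had 54.8 and 47.2 in ES cells and was under an RPKM of 1 in both lines from day 6. None of the 25 tested was called in the shared test or in the interaction with edgeR, where 7 and 12 were lower at an unadjusted p under 0.05, and 16 were called higher and 4 lower in the change over differentiation.

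Genes of the Notch pathway, through which Hes5 is switched on, included some that were lower in shSmyd5 at day 10. There 6 of 15 were at least 2-fold lower and 0 higher, with a median log2 fold of -0.58 over those expressed. Hes5 had -5.41, and 0.0756% of all expressed genes had a lower value than that. Rbpj, the DNA binding partner of Notch, had 22.4 RPKM in shLuc and 25.2 in shSmyd5, and Hes1, another target of Notch, had 25.2 and 24.4. Both were at similar levels in the lines at the stage where Hes5 had 8.41 and 0.101. Notch activity was not measured, and its part in the values of Hes5 was not tested. The receptor gene Notch3 had 19.9 and 8.39, a log2 fold of -1.24 (-1.34 to -1.14), and Rfng, a glycosyltransferase that modifies Notch, had 6.11 and 6.47. Of the expressed genes of the list 0 were lower in ES cells, at 24 h and at day 6 and 1 at day 14, and 2 were higher at 24 h and 1 at day 6. edgeR called none of the 16 tested in the shared test or the interaction (1 lower at an unadjusted p under 0.05 in each), and 6 higher and 2 lower over differentiation.

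Genes of neurogenesis and of neurons, with 15 of 16 listed, act after those of progenitors in development. Here their summed RPKM did not follow that order and was highest at 24 h in both lines. It was 197 in shLuc and 173 in shSmyd5 in ES cells, 212 and 248 at 24 h, and 79.2 and 37.3 at day 10. At day 10, 3 of 6 expressed genes were lower and 0 higher, and at day 14 6 of 7 were lower and 0 higher, with a median log2 fold of -2.43. Tubb3, the tubulin of neurons, had 19.1 RPKM in shLuc and 2.23 in shSmyd5 at day 10 and 17.1 and 2.30 at day 14. Stmn2, a microtubule regulator of neurons, had 12.3 and 2.20 at day 14, and Gap43, a protein of growing axons, had 23.3 and 6.44. Nefl, a neurofilament gene, went the other way at day 14, with 19.0 and 25.5, and so did Stmn2 at day 6, with 48.8 and 80.2. Of the 9 tested, edgeR called none in the shared test or the interaction (2 and 5 lower and 1 and 0 higher at an unadjusted p under 0.05), and 2 higher and 4 lower over differentiation. Tubb3 (-2.21, edgeR adjusted p = 0.00199) and Stmn2 (-4.48, edgeR adjusted p = 4.73e-05) were among those 4, so their levels are not a measure of neurons alone.

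**Figure D4:**
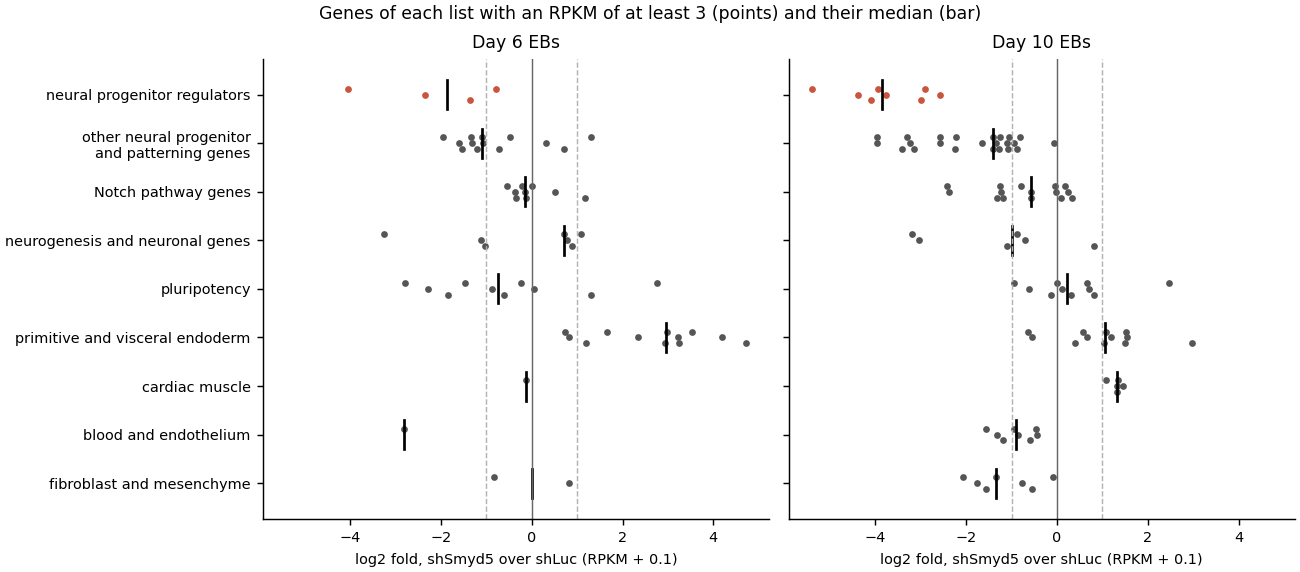
log2 fold of shSmyd5 over shLuc on RPKM plus 0.1 (x axis) of expressed genes, with an RPKM of 3 or more in either line (points; the height within a row has no meaning) in each list (rows), with the median as a bar and dashed lines at a fold of 2, in EBs of day 6 (left) and day 10 (right). At day 10 the 8 neural progenitor regulators (red) have a median of -3.86 and the other neural progenitor genes one of -1.41, and the endoderm genes have a median of 2.95 at day 6 and 1.05 at day 10.

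Markers of other cell types moved at the same stages. Of 12 genes of the primitive and visceral endoderm, the outer layer that EBs form, 10 were at least 2-fold higher in shSmyd5 at day 6 and 0 lower, with a median log2 fold of 2.95 and a summed RPKM of 184 in shLuc and 1107 in shSmyd5. At day 10, 7 were higher and 0 lower, with summed levels of 1851 and 2092, and at day 14, 5 were higher and 0 lower, with 4285 and 4265. None of the 12 was at 0 in either line from day 6. Dab2, an adaptor protein of that layer, had an RPKM of 58.3 and 457 at day 6 and of 147 and 333 at day 10. Ttr, which encodes a carrier of thyroid hormone, had 30.1 and 285 at day 6, while the serum protein genes Afp (922 and 626) and Apoa1 (231 and 149) were lower at day 10, by less than 2-fold.

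Cardiac muscle genes were higher in shSmyd5 at day 10, 5 of 5 that were expressed, with summed levels over the list of 24.9 and 56.1. Actc1, the cardiac actin, had 8.69 and 18.6, Myl7 4.84 and 13.3, Myl4 3.61 and 9.13, and Tnnt2, cardiac troponin T, 2.88 and 7.39. A gene of any list could count as expressed through 1 line alone, as Tnnt2 did through shSmyd5, where it was higher. Genes of blood and endothelium summed to 750 and 416 at day 10, with 3 of 8 lower and 0 higher. The embryonic globin genes Hbb-bh1 (401 and 177), Hba-x (254 and 187) and Hbb-y (39.0 and 21.4) and the endothelial cadherin gene Cdh5 (16.8 and 8.64) were the highest. Genes of fibroblasts and mesenchyme summed to 560 and 223, with 4 of 7 lower and 0 higher, among them the collagen genes Col1a1 (144 and 48.8), Col1a2 (103 and 30.5) and Col3a1 (137 and 32.4), while Lum had 56.1 and 32.6. None of the genes of these 3 lists was at 0 at day 10. At day 14 the cardiac genes were within 2-fold, 6 of 6, with summed levels of 105 and 80.1. Blood and endothelium then summed to 144 and 270, with 1 of 6 lower and 2 higher, and mesenchyme to 3274 and 1847, with 2 of 7 lower and 0 higher.

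Pluripotency genes, a list of 10, were all still detected at day 10, with summed levels of 138 in shLuc and 194 in shSmyd5, 0 lower and 1 higher. Pou5f1 had 26.4 and 17.1, Tdgf1 8.18 and 8.14, Dppa5a 40.0 and 70.4, and Utf1 12.8 and 13.9. In ES cells their sum was 3616 and 2941, with 2 lower and 0 higher. At day 6, 4 were lower and 2 higher, and at day 14, 5 were lower and 1 higher. edgeR called none of these marker genes in the shared test or the interaction. At an unadjusted p under 0.05 in the shared test 7 of 12 endoderm genes were higher and 0 lower, 3 of 10 pluripotency genes were lower and 1 higher, and 1 of 7 blood and endothelium and 2 of 8 mesenchyme genes were lower. Over differentiation it called all 10 pluripotency genes lower, and 12 of 12 endoderm, 6 of 6 cardiac, 6 of 7 blood and endothelium and 7 of 8 mesenchyme genes tested higher. The part of these other cell types in the values of the 8 genes was not tested.

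Zic1 and Zic2, zinc finger genes also used in neural progenitors, were also lower in shSmyd5 at day 10, with an RPKM of 27.5 and 0.248 for Zic1 and 29.7 and 5.35 for Zic2. At day 6 Zic2 had 101 and 84.3, well above the 8 genes described here and within 2-fold between the lines.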

How the data were processed

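The authors mapped single-end RNA-Seq reads of polyA RNA to mm9 (Bowtie2 and CASAVA in the submitters' processing notes) and deposited, for each of 29257 RefSeq transcripts and each library, a read count and an RPKM. The deposited read counts are whole reads, not normalized, and the deposited RPKM values are scaled to transcript length and library size, which was checked to 1% in 100% of the values with at least 200 reads. The cDNA was made without strand marks. Each of 22878 genes was represented by its most read transcript. Gene coordinates came from GENCODE M1 on NCBIM37 (mm9), and that of Sox1 from its RefSeq promoter. Samples were grouped by the line and stage in the labels, 1 library each. Folds (0.1 added to RPKM) have no test. The 3 tests over stages used edgeR 4.0.16 on the 12277 genes whose RPKM averaged 1 or more (Benjamini-Hochberg adjusted p of 0.05), with limma 3.58.1 and DESeq2 1.42.0 (R 4.3.3) as alternatives. Intervals cover counting error only, since each line and stage has 1 library. Copies made by PCR are not independent molecules and can make the intervals too narrow even for that. All 8 genes were described, and named from each list were the 4 with the highest RPKM in any library, and for each of the 8 the 3 genes most alike in profile. Elp4 and Six3os1 were added for their overlap, and Fezf2, Dach1, Cntnap2 and Zfp827 were picked for levels and 6 other neural genes for their folds, after values were seen. The members and lists were chosen with earlier results of these data known. Intervals were computed with scipy 1.17.1 and figures drawn with matplotlib 3.10.9 under Python 3.11.15.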

Additional observations from a re-analysis of the deposited data

Results flagged for a closer look

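Sox3 was picked out because its fold of at least 2, at an RPKM of at least 3, took opposite directions at different stages. The log2 fold of shSmyd5 over shLuc was -1.92 in ES cells, 2.87 at 24 h and -4.10 at day 10. The difference between these stages was not tested, since each rests on 1 library per line. The shLuc values behind them were 4.51, 0.454 and 10.1 RPKM, with 52, 18 and 638 reads, and the shSmyd5 values were 1.12, 3.96 and 0.496 RPKM, with 91, 342 and 16 reads.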

How the results depend on the processing

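At an RPKM of at least 10 in place of 3, the genes of the 8 that were at least 2-fold lower numbered 0 in ES cells, 0 at 24 h, 1 at day 6, 4 at day 10 and 1 by day 14. With an RPKM of 1 or more asked for there were 2 at 24 h, and with no RPKM filter 2 at 24 h and 7 at day 14. With the GC and length trend taken out there were 0 in ES cells and 0 at 24 h, where Sox1, the gene counted, has no GC value here. Other pseudocounts and TMM scaling left these counts within 1.5 times. Of 167 single values under an alternative, 117 stayed within the counting interval of the value reported, 50 moved beyond it and none that passed the fold of 2 changed sign. In the shared test, DESeq2 called 336 of 12038 genes and 5 of the 7 it tested of the 8, and edgeR with no RPKM filter called 163 of 19819 genes and 3 of the 8, against 0 and 0. Leaving out 1 stage at a time gave 0 to 6 genes. In the interaction DESeq2 called 23 genes, and leaving out a stage gave 0 to 1. The cause was not tested. Of 244 member estimates under an alternative, 8 gained a call and 1 lost it. Hes5 could be tested with no RPKM filter only, with edgeR adjusted p-values of 0.468 (shared) and 0.0159 (over differentiation, 4.56 on the log2 scale). Over the alternatives the change over differentiation went from 2.44 to 9.32 for Fabp7, 1.51 to 5.94 for Six3, 1.69 to 2.47 for Nes, -0.95 to 1.39 for Pax6, -0.21 to 1.32 for Sox1 and -2.01 to 0.12 for Sox3. Without the block for stage, edgeR called 0 genes in the shared test. The shared test pairs the lines within a stage, and no pairing by replicate number was made, since the labels give none. The shLuc ES cell library, with 3895537 reads in genes, limits what can be seen of genes at a few reads. More genes had 0 reads in shSmyd5 than in shLuc at 24 h (8533 and 6670) and at day 6 (8018 and 5925). At 24 h this was so although shSmyd5 had more reads in genes (26181482 and 11119729). The part of this in the folds was not tested.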
